A study of Homo sapiens with 5 samples.

Results

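SERPINB7 and 7 other serpin genes (SERPINB1, SERPINB2, SERPINB5, SERPINB6, SERPINB8, SERPINB9 and SERPINE2) were followed in single-cell RNA profiles of MDA-MB-468, an established human triple-negative breast cancer line. They are 8 of the 33538 genes in the deposited matrix, and all 8 were found in it by symbol. They were chosen by their CPM and share of positive cells in the 5 samples: SERPINB7 because it was high in every FOSL1 sample, and the others to see whether it stands alone among the serpins of its clade. CPM is a gene's UMIs (unique transcript tags) in a sample scaled to a total of 1000000. Because these same values chose the members, the levels and ratios below are a description and carry no test. FOSL1 codes for FRA-1, which pairs with JUN proteins to form the transcription factor AP-1.

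The 5 samples were each stained with a hashtag antibody, pooled and sequenced as 1 library. They were an HA control, an HA FOSL1 sample, a VPR control, and VPR FOSL1 samples with gRNA2 and with gRNA3. The labels spell out neither HA nor VPR, name no clone or promoter, and mention 5-fluorouracil (5-FU) for the series in general without saying whether these cells received it. The hashtags of the HA pair read GOF in the deposited table and were matched to the HA samples by elimination; the protocol speaks of a pool of 6 stained samples but names these 5. Both guide samples are set against the same VPR control. Each group held 1 sample, so no difference below has a replicate check, and every interval is a 95% interval of counting error only. The kept cells numbered 14642, and a sample held between 42058533 and 85556699 UMIs. The HA FOSL1 sample had the deepest cells (median 20768 UMIs, HA control 15402). The epithelial line markers EPCAM, KRT8, KRT18, KRT19, EGFR and CDH1 were present in every sample. Of the immune, endothelial and fibroblast markers DCN had no UMI, PTPRC, CD3E and PECAM1 stayed under a mean of 1 CPM over the 5 samples, and CD14 (13.6 to 18.6 CPM) and COL1A1 (2.21 to 4.30 CPM) lay above it.

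Serpins are a family of protease inhibitors, most of which trap their target protease by offering it a reactive loop as bait and then changing shape. Those of clade B mostly lack a classical signal peptide and act inside the cell, and many are made in stratified epithelia. SERPINB7, also called megsin, is made in the upper epidermis, and its inherited loss causes Nagashima-type palmoplantar keratosis. In the human genome the clade B genes sit in a pair of clusters. In the RefSeq table for GRCh38.p14, SERPINB7 (ENSG00000166396) spans bases 63753057 to 63805370 of chromosome 18, in a row with SERPINB5, SERPINB12, SERPINB13, SERPINB4, SERPINB3, SERPINB11, SERPINB2, SERPINB10 and SERPINB8. SERPINB1, SERPINB9 and SERPINB6 lie in that order on chromosome 6 (bases 2832332 to 2971793), and SERPINE2 on chromosome 2 (223975045 to 224039286).

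Because FOSL1 encodes a part of AP-1, the RefSeq promoter windows of the clade B genes were searched for TGANTCA. This is a looser form of the AP-1 consensus TGAGTCA or TGACTCA, and as a pattern it reads the same on both strands. The windows ran from 250 bases before to 50 after a transcript start (GRCh38.p14). Of the 13 clade B genes 11 had a window, and 6 of these held the motif in at least 1 window. Of all 27305 genes with a window, 9.37% held it in at least 1, and of all 35116 windows 7.71% did. SERPINB7 has 3 windows for different starts; the most upstream one held no match, and each of the other 2 held 2 matches, as 0.515% of all windows did with 2 or more. The windows of SERPINB8 held 2 matches and those of SERPINB5, SERPINB2, SERPINB12 and SERPINB13 held 1 each. The stricter TGAGTCA or TGACTCA was in the SERPINB7 windows with matches and in those of SERPINB8 and SERPINB13. Of all windows 4.95% held this stricter form, and its share of all genes was not computed. The matches of SERPINB5, SERPINB2 and SERPINB12 were TGAATCA or TGATTCA alone. SERPINB12 and SERPINB13 were almost without UMIs in every sample. No match was found in the windows of SERPINB1, SERPINB3, SERPINB4, SERPINB6, SERPINB9 or SERPINE2. The sequences below show the 250 bases before the start in the windows with a match of SERPINB7, SERPINB8 and SERPINB5, the genes with a match and at least 1 CPM in both controls. All are on the plus strand, with matches in capitals, and windows without a match are not shown. A match is a run of letters and not a measured binding site, and 3' tags do not tell which SERPINB7 start was used.
SERPINB7 (chr18:63775168-63775417): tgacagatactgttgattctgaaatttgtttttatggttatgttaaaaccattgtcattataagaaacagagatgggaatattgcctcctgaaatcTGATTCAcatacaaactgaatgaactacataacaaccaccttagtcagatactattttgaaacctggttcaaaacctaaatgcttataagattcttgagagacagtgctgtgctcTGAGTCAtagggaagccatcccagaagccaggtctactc
SERPINB7 (chr18:63777531-63777780): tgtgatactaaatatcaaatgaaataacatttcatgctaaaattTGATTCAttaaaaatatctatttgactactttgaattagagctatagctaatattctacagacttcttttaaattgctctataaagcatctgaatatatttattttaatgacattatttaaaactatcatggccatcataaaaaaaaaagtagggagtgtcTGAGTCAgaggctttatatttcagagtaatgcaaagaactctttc
SERPINB8 (chr18:63969831-63970080): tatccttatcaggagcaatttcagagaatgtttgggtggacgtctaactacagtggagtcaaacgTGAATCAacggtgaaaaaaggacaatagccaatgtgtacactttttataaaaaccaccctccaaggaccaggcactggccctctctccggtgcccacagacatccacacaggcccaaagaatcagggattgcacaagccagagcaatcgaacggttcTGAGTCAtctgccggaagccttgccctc
SERPINB5 (chr18:63476708-63476957): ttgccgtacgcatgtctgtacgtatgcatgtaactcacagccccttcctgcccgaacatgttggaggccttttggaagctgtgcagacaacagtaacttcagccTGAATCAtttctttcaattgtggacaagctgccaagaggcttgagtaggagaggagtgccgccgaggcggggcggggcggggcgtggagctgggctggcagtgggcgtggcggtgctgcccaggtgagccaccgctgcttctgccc

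In the first SERPINB7 sequence TGATTCA begins 154 bases and TGAGTCA 39 bases before the start. In the second they begin 206 and 45 bases before it. SERPINB8 has TGAATCA at 185 bases and TGAGTCA at 28 bases, and SERPINB5 has TGAATCA alone, at 146 bases.

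SERPINB7 had the largest ratio of the clade B serpins in each of the 3 FOSL1 samples, on a log2 scale of CPM + 1. In the HA arm SERPINB3, from a control level near 0, came within its interval. As plain ratios of CPM, SERPINB3 and SERPINB4 stood above SERPINB7 in that arm, so the first place of SERPINB7 there depends on the scale. SERPINB7 stood at 4.91 CPM in the HA control (exact Poisson interval 4.35 to 5.52) and 74.1 CPM in the HA FOSL1 sample (71.5 to 76.8), from 280 and 3117 UMIs. In the VPR system the control held 5.27 CPM (4.62 to 5.99), the gRNA2 sample 31.3 CPM (29.8 to 32.9) and the gRNA3 sample 33.8 CPM (32.6 to 35.1). The controls thus lay close together, the guide samples close together at a higher level, and the HA FOSL1 sample above them all. As plain ratios of CPM, the FOSL1 samples stood 15.1-fold (HA), 5.94-fold (gRNA2) and 6.42-fold (gRNA3) above their controls. On the log2 scale of CPM + 1, used below because it does not inflate genes with few UMIs, these were 3.67 (3.52 to 3.82), 2.37 (2.19 to 2.54) and 2.47 (2.31 to 2.64).

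Of the 12645 genes whose 5 samples averaged 1 CPM or more, SERPINB7 had the second highest ratio in the HA arm and the third highest with each guide. The highest with each guide was the targeted gene FOSL1. The VPR control exceeded the HA control by log2 0.09 (-0.13 to 0.30), an interval that includes 0. The gRNA3 sample exceeded the gRNA2 sample by 0.11 (0.02 to 0.20). FOSL1 itself ran in another order, with 63.5 CPM in the HA FOSL1 sample, 101 CPM with gRNA2 and 94.3 CPM with gRNA3 (8.96 and 8.91 CPM in the controls). SERPINB7 was therefore highest in the sample with the lowest counted FOSL1 of the 3, although RNA from an HA construct is counted only where it ends like the native transcript. Empty droplets held SERPINB7 at 31.7 CPM (24.6 to 40.3). If 5% of the UMIs were free RNA of that makeup, the cells' own level would be 3.50 CPM in the HA and 3.88 CPM in the VPR control; the part of free RNA in the control counts was not tested.

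**Figure D1:**
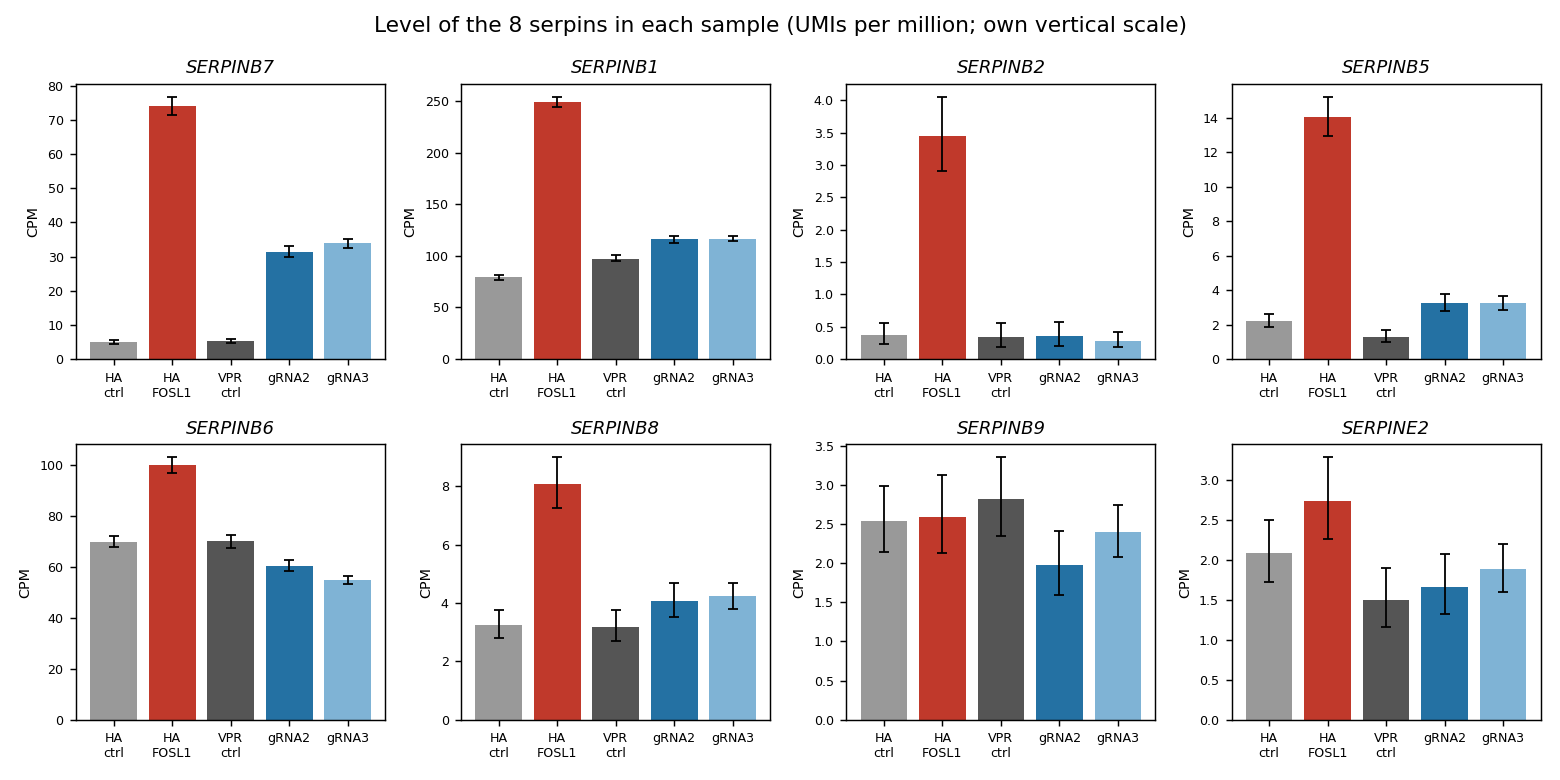
Level of the 8 serpins in the 5 samples, in CPM (vertical axes, each from 0 on its own scale), with exact 95% Poisson intervals of counting error. SERPINB7 stands at 31.3 and 33.8 CPM in the guide samples against 5.27 CPM in their control, while SERPINB2 and SERPINB8 are high in the HA FOSL1 sample at 3.45 and 8.08 CPM.

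In the HA arm SERPINB7 did not stand alone. Of the 12 clade B genes with any UMI, 7 were at least 2-fold higher in the HA FOSL1 sample on the scale of CPM + 1 and 0 lower, where 1.68% of all genes with a UMI were 2-fold higher. SERPINB2, SERPINB3 and SERPINB4 exceeded 1 CPM in the HA FOSL1 sample alone, so their place in such a count follows from that level. Among the 6 clade B genes with at least 1 CPM in the HA control, 4 were 2-fold higher (SERPINB1, SERPINB5, SERPINB7 and SERPINB8), beside 2.28% of all genes chosen in that way.

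With the guides SERPINB7 was the single clade B gene at 2-fold on the scale of CPM + 1. SERPINB5 joined it as a plain ratio of CPM (2.51-fold with gRNA2, 2.50-fold with gRNA3) and with a pseudocount of 0.1 CPM (log2 1.26 in both), so that whether SERPINB7 stands alone there depends on the scale. Of the 12 with any UMI it was the 1 past 2-fold with each guide, beside 0.216% of all genes (gRNA2) and 0.245% (gRNA3). It was likewise 1 of the 6 genes with at least 1 CPM in the VPR control, beside 0.347% of all genes with gRNA2 and 0.386% with gRNA3, and SERPINB7 was chosen for this difference. The next was SERPINB5, and the other 4 of those 6 lay between log2 -0.36 and 0.32. At 1.5-fold, SERPINB7 and SERPINB5 were the 2 clade B genes higher in all 3 arms, as were 1.04% of the 12645 genes. With a mean of 20 CPM or more required, 2 clade B genes (SERPINB1 and SERPINB7) were 2-fold higher in the HA arm, beside 1.83% of all genes, but SERPINB7 reaches that mean only through the FOSL1 samples. At 1.5-fold and a mean of at least 1 CPM, each guide had 2 of 8, beside 1.48% of all genes with gRNA2 and 1.49% with gRNA3. Of these 8, SERPINB3 and SERPINB4 reach the mean only through the HA FOSL1 sample. Over the 6 clade B genes with at least 1 CPM in the control, the medians of the log2 ratios were 1.37 (HA), 0.26 (gRNA2) and 0.29 (gRNA3), beside -0.05, -0.01 and -0.03 over all genes chosen in that way. Whether the HA arm differs from the guide arms was not tested, since each is 1 sample against 1 sample.

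**Figure D2:**
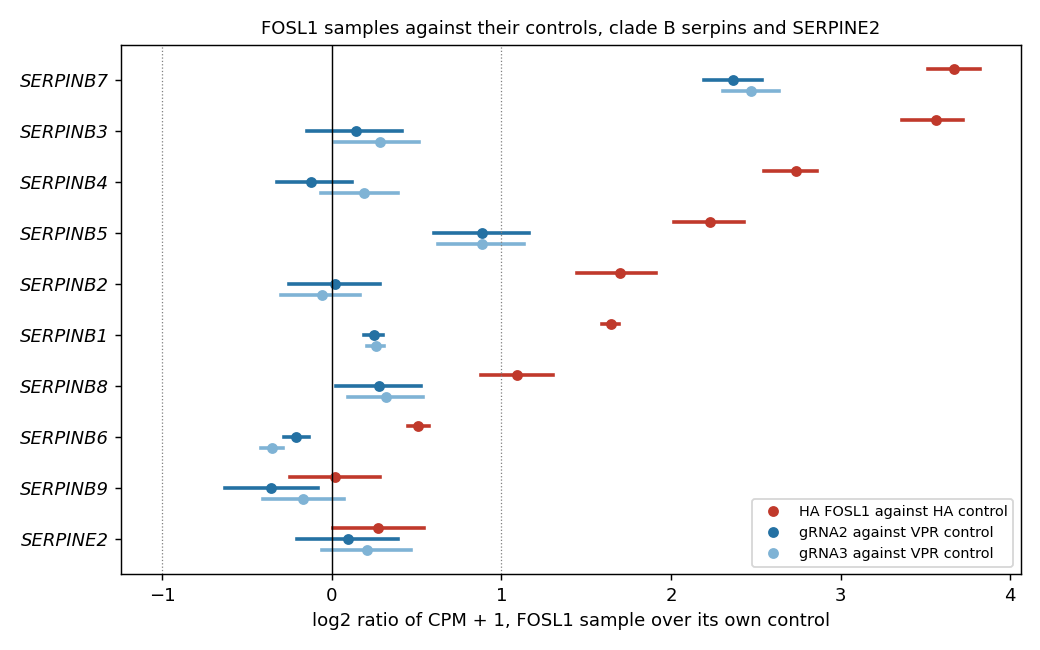
Log2 ratio of CPM + 1 of each FOSL1 sample over its own control (horizontal axis), for clade B serpins and SERPINE2, with 95% intervals of counting error; dotted lines mark 2-fold. In the guide arms SERPINB7 (2.37 and 2.47) lies apart from the others, whereas in the HA arm SERPINB3 (3.56), SERPINB4 (2.74) and SERPINB5 (2.23) are also past 2-fold.

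SERPINB5 encodes maspin, a clade B serpin of mammary and other epithelia that does not inhibit proteases. It stood at 2.21 CPM in the HA control, 14.0 CPM in the HA FOSL1 sample, 1.30 CPM in the VPR control, 3.25 CPM in the gRNA2 sample and 3.24 CPM in the gRNA3 sample. It was thus the only other member at least 1.5-fold higher in all 3 FOSL1 samples than in their own controls, by log2 2.23 (2.02 to 2.43), 0.89 (0.60 to 1.16) and 0.88 (0.63 to 1.13). Its guide ratios depend on the control, because the VPR control lay 0.48 below the HA control (-0.76 to -0.20). Against the HA control they would be 0.40 with gRNA2 and 0.40 with gRNA3, under 1.5-fold. The gRNA2 ratio was also under 1.5-fold with thinned cells (0.57), and both were with a pseudocount of 5 CPM (0.39 and 0.39). The VPR control level rests on 58 UMIs, and empty droplets held SERPINB5 at 5.21 CPM (2.60 to 9.31), above both controls and both guide samples in its point value.

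SERPINB1 encodes an inhibitor of neutrophil elastase and cathepsin G. Its level was 79.1 CPM in the HA control, 249.6 CPM in the HA FOSL1 sample, 97.5 CPM in the VPR control, 116 CPM in the gRNA2 sample and 117 CPM in the gRNA3 sample. The HA FOSL1 sample was set apart by log2 1.65 (1.60 to 1.70), while the guide samples lay 0.25 (0.19 to 0.31) and 0.26 (0.21 to 0.31) above their control. Those guide ratios are no larger than the gap between the controls, where the VPR control was 0.30 higher (0.24 to 0.36), and the spread between cultures was not measured.

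SERPINB8 encodes an inhibitor of furin, and stood at 3.26, 8.08, 3.19, 4.08 and 4.23 CPM in the same order of samples. It was 1.09 higher in the HA arm (0.88 to 1.30), 0.28 with gRNA2 (0.03 to 0.52) and 0.32 with gRNA3 (0.10 to 0.54). SERPINB2, an intracellular inhibitor of urokinase, was nearly absent outside the HA FOSL1 sample, with 3.45 CPM there (145 UMIs) against 0.37 CPM in the HA control (21 UMIs). In the VPR system it had 0.33 CPM in the control, 0.35 CPM with gRNA2 and 0.28 CPM with gRNA3, and both guide intervals included 0 (0.02, -0.25 to 0.29, and -0.06, -0.30 to 0.17). It is the 1 member of 8 under a mean of 1 CPM.

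The remaining members differed little from their controls or lay on different sides of them. SERPINB6, an inhibitor of cathepsin G and related proteases, had 69.8 CPM in the HA control, 99.8 CPM in the HA FOSL1 sample, 70.0 CPM in the VPR control, 60.4 CPM in the gRNA2 sample and 54.7 CPM in the gRNA3 sample. It was thus higher in the HA arm by 0.51 (0.45 to 0.57) and lower with both guides, at -0.21 (-0.28 to -0.14) and -0.35 (-0.41 to -0.29), from controls that differed by 0.004. SERPINB9, which protects cells from granzyme B, ranged from 1.98 to 2.81 CPM. Its HA ratio was 0.02 (-0.25 to 0.29), the gRNA2 ratio -0.36 (-0.63 to -0.08) and the gRNA3 ratio -0.17 (-0.41 to 0.07). SERPINE2, protease nexin, is a secreted inhibitor of thrombin and plasminogen activators and the only member outside clade B. It ranged from 1.496 CPM in the VPR control to 2.73 CPM in the HA FOSL1 sample, with ratios of 0.27 (0.01 to 0.54), 0.09 (-0.20 to 0.39) and 0.21 (-0.06 to 0.47).

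Outside the 8 members, the clade B genes SERPINB3 and SERPINB4 (squamous cell carcinoma antigens) gave the sharpest contrast between the HA and guide arms. SERPINB3 had 0.281 CPM in the HA control (16 UMIs) and 14.1 CPM in the HA FOSL1 sample (595 UMIs), a plain ratio of 50.4. In the VPR system it had 0.357 CPM in the control, 0.499 CPM with gRNA2 and 0.655 CPM with gRNA3. SERPINB4 had 8 UMIs in the HA control and 278 in the HA FOSL1 sample (0.140 and 6.61 CPM), and at most 0.421 CPM in the VPR samples. Empty droplets held SERPINB3 at 5.21 CPM and SERPINB4 at 3.79 CPM. If 5% of the UMIs were free RNA of that makeup, their HA control levels would be 0.0213 and 0.0 CPM. The plain ratio of 50.4 rests on few control UMIs, and the part of free RNA in them was not tested. The pair are near-identical copies, and reads of one may have been counted for the other or dropped. SERPINB13 had at most 0.262 CPM, and SERPINB10 and SERPINB12 had 3 UMIs and 1 UMI over all samples. SERPINB11 had none, for which the exact Poisson interval reaches up to 0.0877 CPM in the HA FOSL1 sample.

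Read along chromosome 18, the high HA ratios were those of serpin genes, though not of every one, and not of the genes that precede the cluster. The neighbours BCL2, KDSR and VPS4B, which precede SERPINB5, had HA ratios of -0.16, 0.08 and 0.23. HMSD, inside the row between SERPINB2 and SERPINB8, had -0.10 from 33 UMIs in the HA control and 20 in the HA FOSL1 sample. SERPINB13, also in the row, had 0.0701 CPM and 0.262 CPM in these samples. Both genes lie under 1 CPM, where the scale of CPM + 1 shrinks a ratio. In the same row SERPINB5 had 2.23, SERPINB4 2.74, SERPINB3 3.56, SERPINB7 3.67, SERPINB2 1.70 and SERPINB8 1.09. SERPINB2, the serpin that follows SERPINB7 in the row and starts 135 kb further on, had guide ratios of 0.02 and -0.06. Of the clade B genes on chromosome 6, SERPINB1 was the 1 past 2-fold in the HA arm, and the 3 had a median of 0.51 there and of -0.21 and -0.17 with the guides.

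**Figure D3:**
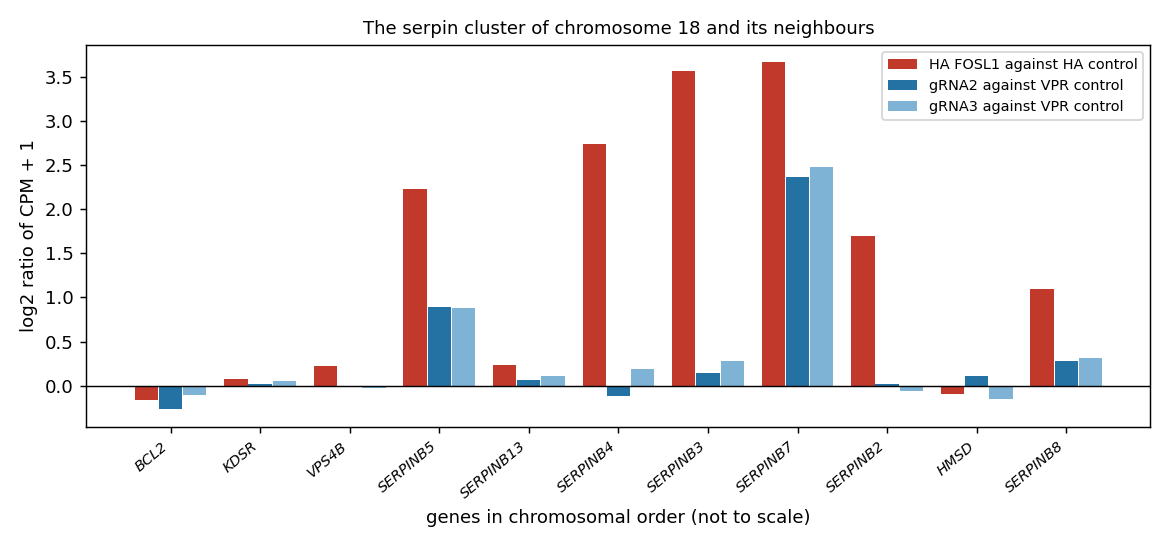
Log2 ratio of CPM + 1 (vertical axis) for genes of the chromosome 18 serpin cluster and its neighbours in chromosomal order, without a distance scale; SERPINB10, SERPINB11 and SERPINB12 are left out for lack of UMIs. In the HA arm (red) 6 serpin genes exceed 1, and in the guide arms (blue) SERPINB7 does, at 2.37 and 2.47.

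The higher SERPINB7 level went with more cells holding a UMI and with more UMIs in those cells. With every cell thinned to the same 5000 UMIs, SERPINB7 was seen in 1.72% of HA control cells, with an exact binomial interval of 1.31% to 2.22%. In the HA FOSL1 sample it was seen in 23.2% (21.3% to 25.2%). The VPR system had shares of 2.32% (control, 1.77% to 2.98%), 12.2% (gRNA2, 10.9% to 13.5%) and 12.5% (gRNA3, 11.5% to 13.5%). Without thinning they were 5.89%, 52.1%, 7.17%, 29.6% and 33.2% in the order HA control, HA FOSL1, VPR control, gRNA2 and gRNA3. The pool holds 1 cell line, so no cell type that lacks the gene was there to give a background share.

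Positive thinned cells held 1.10 SERPINB7 UMIs on average in the HA control, 1.42 in HA FOSL1, 1.03 in the VPR control, 1.27 (gRNA2) and 1.25 (gRNA3). Such an average rises with the level even where UMIs are spread evenly over cells. Cells with 3 or more UMIs made up 1.87% of the HA FOSL1 sample, 0.552% with gRNA2 and 0.583% with gRNA3, against 0.0297% and 0.0387% in the controls. The UMIs were not spread evenly, since an even (Poisson) spread at the same mean would have put a UMI in 28.0% of HA FOSL1 cells, 14.3% with gRNA2 and 14.5% with gRNA3. Other serpins were spread unevenly too. In the HA FOSL1 sample the variance over the mean was 1.53 for SERPINB7, 1.59 for SERPINB1 (61.1% of cells, 69.0% at an even spread) and 2.07 for SERPINB3, while SERPINB6 was near an even spread (38.2% and 38.5%).

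Among the other clade B genes, SERPINB5 was found in 0.980% of thinned HA control cells and 6.33% of HA FOSL1 cells (5.25% to 7.54%). With the guides its shares of 1.54% (1.10% to 2.10%) and 1.70% (1.34% to 2.14%) overlapped the interval of the VPR control (0.928%, 0.595% to 1.38%). SERPINB3 was found in 4.79% of HA FOSL1 cells (3.85% to 5.87%) and SERPINB2 in 1.10% (0.673% to 1.69%), each against 0.0891% in the HA control. At 9.80% of HA FOSL1 cells even without thinning, SERPINB3 UMIs came from a minority of cells. SERPINB1 was found in 32.2% of HA control and 61.1% of HA FOSL1 cells.

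**Figure D4:**
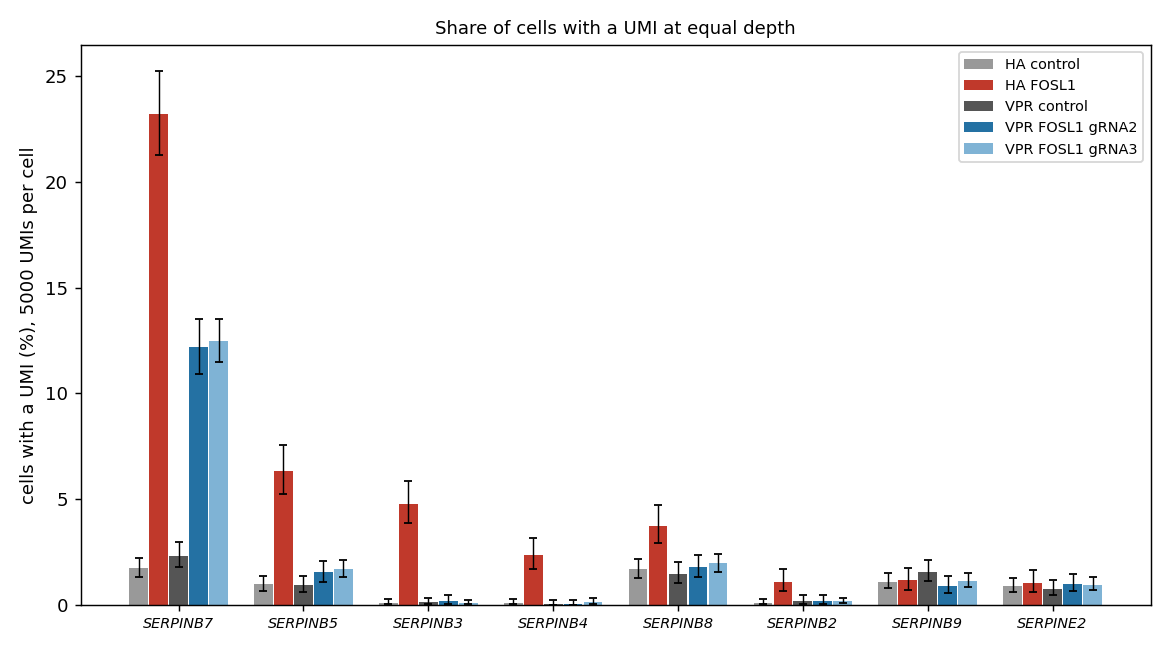
Share of cells with a UMI of each gene (vertical axis, percent) after thinning every cell to 5000 UMIs, with exact 95% binomial intervals of counting error, in the 5 samples. SERPINB7 reaches 23.2% in the HA FOSL1 sample and 12.2% and 12.5% in the guide samples, above both controls; SERPINB9 and SERPINE2 stay under 2% throughout.

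In the FOSL1 samples and, from few cells, in the controls, SERPINB7 was more often found in cells that also held a FOSL1 UMI. In thinned HA FOSL1 cells it was found in 32.9% of the 362 cells with a FOSL1 UMI (28.1% to 38.0%) and in 20.8% of the 1456 without (18.8% to 23.0%). With gRNA2 the shares were 14.8% (12.4% to 17.4%) and 11.0% (9.52% to 12.5%), which barely overlap, and with gRNA3 16.1% (14.1% to 18.2%) and 10.9% (9.82% to 12.1%). The ratios of these shares were 1.58 (1.32 to 1.89), 1.35 (1.09 to 1.67) and 1.48 (1.26 to 1.73), over cells of 1 sample each, which are not replicates. Cells of the FOSL1 samples without a FOSL1 UMI still held SERPINB7 far more often than control cells without one, at 1.62% in the HA control and 2.13% in the VPR control. At 5000 UMIs a cell, no FOSL1 UMI does not mean no FOSL1 RNA. By number of FOSL1 UMIs (0, 1, and 2 or more), the SERPINB7 share was 20.8%, 30.7% and 39.1% in the HA FOSL1 sample, 11.0%, 14.6% and 15.3% with gRNA2, and 10.9%, 14.5% and 20.6% with gRNA3. SERPINB7 was not alone in this in the HA FOSL1 sample. With against without a FOSL1 UMI, SERPINB1 was in 71.5% (66.6% to 76.1%) against 58.4% (55.9% to 61.0%). SERPINB2 was in 2.76% (1.33% to 5.02%) against 0.687% (0.330% to 1.26%). Intervals of the other members overlapped there. The split by FOSL1 was made for the members alone, so no share over all genes stands beside it. SERPINB7 went the same way in the controls, where cells with a FOSL1 UMI were few. It was found in 5 of 105 (HA, 4.76%, 1.56% to 10.8%) and 7 of 94 (VPR, 7.45%, 3.05% to 14.7%). Cells without a FOSL1 UMI had intervals of 1.22% to 2.12% (HA, overlapping) and 1.60% to 2.77% (VPR, not overlapping). Thinned to 10000 UMIs, the shares were 7.83% against 3.62% (HA) and 13.3% against 3.92% (VPR). Neither pair of those intervals overlapped.

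**Figure D5:**
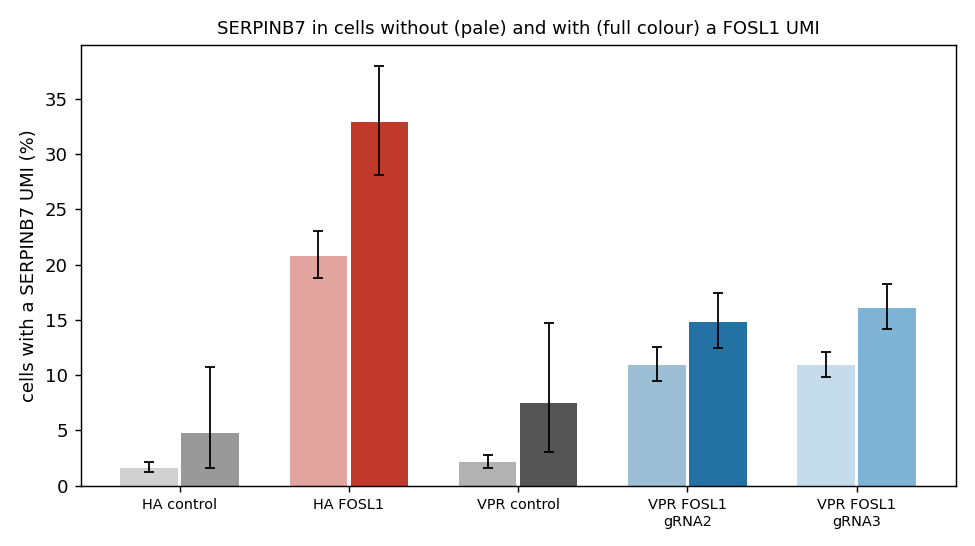
Share of thinned cells with a SERPINB7 UMI (vertical axis, percent) among cells without (pale bars) and with (full bars) a FOSL1 UMI in each of the 5 samples, with exact 95% binomial intervals of counting error. In the HA FOSL1 sample the shares are 20.8% and 32.9%, and even the pale bars of the FOSL1 samples exceed those of the controls.

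In the HA FOSL1 sample SERPINB1, SERPINB2, SERPINB3, SERPINB4, SERPINB5 and SERPINB8 were found more often in cells with a SERPINB7 UMI than without. Their intervals did not overlap. The split was made for serpins alone, so the share of all genes that would differ in this way is not known. SERPINB5 was found in 13.0% of the 422 thinned cells with a SERPINB7 UMI (9.97% to 16.6%) and in 4.30% of the 1396 without (3.30% to 5.50%). SERPINB3 was found in 10.2% (7.47% to 13.5%) against 3.15% (2.30% to 4.21%), SERPINB2 in 2.84% (1.48% to 4.91%) against 0.573% (0.248% to 1.13%), and SERPINB8 in 6.40% (4.26% to 9.17%) against 2.94% (2.12% to 3.96%). SERPINB4 was found in 4.74% (2.92% to 7.22%) against 1.65% (1.05% to 2.46%). SERPINB1 was in 75.1% of cells (70.7% to 79.2%) against 56.8% (54.2% to 59.4%). The intervals of SERPINB6 (41.9% against 37.1%), SERPINB9 (1.42% against 1.07%) and SERPINE2 (1.90% against 0.788%) overlapped. With the guides no difference of this kind was resolved for SERPINB1, SERPINB5, SERPINB8 or SERPINB3, and whether the arms differ was not tested. SERPINB1 was in 47.2% against 40.8% of cells with gRNA2, with overlapping intervals (41.6% to 53.0% and 38.8% to 42.9%), and in 43.7% against 42.9% with gRNA3 (39.5% to 48.1% and 41.3% to 44.5%). SERPINB5 was in 1.62% against 1.53% and in 2.62% against 1.57%, also with overlapping intervals. SERPINB8 was in 3.24% (1.56% to 5.87%) against 1.57% (1.10% to 2.18%) with gRNA2 and in 2.99% (1.72% to 4.81%) against 1.81% (1.41% to 2.29%) with gRNA3. SERPINB3 with gRNA2 was in 3 of 309 cells against 2 of 2228. In the controls few cells held a SERPINB7 UMI, 58 (HA) and 60 (VPR). Even so, SERPINB5 in the HA control was in 6.90% of them (1.91% to 16.7%) against 0.876% (0.588% to 1.26%). In the VPR control SERPINB1 was in 55.0% (41.6% to 67.9%) against 36.8% (35.0% to 38.8%). For the other genes the control intervals overlapped.

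Among genes averaging 10 CPM or more, those whose levels over the 5 samples ran closest to SERPINB7 were no serpins. Over the 7988 genes averaging 10 CPM or more, the smallest root mean square differences of centred log2 values belonged to IL7R (0.26), KLK6 (0.37), LAMB3 (0.43), COL5A2 (0.52) and SUN3 (0.53). IL7R stood at 11.3, 113, 12.9, 57.2 and 47.1 CPM in the HA control, HA FOSL1, VPR control, gRNA2 and gRNA3 samples. SERPINB5, SERPINB3, SERPINB4 and SERPINB8 averaged under 10 CPM, so they could not be among these. Measured separately at a mean of 1 CPM or more, the nearest clade B gene was SERPINB5, at 0.84, and FOSL1 lay at 0.66. SERPINB9 (1.51) was the farthest of the clade B genes compared.

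Serpins of the other clades were not higher in their medians. Of 22 listed genes 5 reached a mean of 1 CPM, the member SERPINE2 among them. Genes under that mean were left out here, unlike in the clade B count over genes with any UMI. The median log2 ratios of the 5 were -0.16 (HA), -0.30 (gRNA2) and -0.04 (gRNA3). In the HA arm 1 of these 5 was 2-fold higher (log2 1.30), beside 2.75% of all genes, and 0 were 2-fold lower. With the guides 0 were 2-fold higher, beside 0.403% (gRNA2) and 0.459% (gRNA3) of all genes. SERPINH1, the collagen chaperone of the endoplasmic reticulum, was lower in the HA arm (-0.43) and near its control with the guides (-0.10 and -0.04). SERPINF2, the plasmin inhibitor, was lower in each arm (-0.91, -0.56 and -0.61).

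A list of 26 protease and plasminogen-activation genes, the kind of targets serpins have, held 15 at a mean of 1 CPM. In the HA arm 4 of these were 2-fold higher (2.75% of all genes) and 1 was 2-fold lower (1.49%). With gRNA2 1 was higher (0.403% of all genes), with gRNA3 3 were (0.459%), and with neither guide was any lower (0.269% and 0.364%). The epidermal kallikreins KLK5, KLK6, KLK8 and KLK10 were at least 1.5-fold higher in all 3 arms, with KLK6 at 3.25 (HA), 1.46 (gRNA2) and 1.54 (gRNA3). They were also higher in the VPR than in the HA control, by between 0.36 (KLK10) and 0.76 (KLK8), where SERPINB7 differed by 0.09. F2R, the thrombin receptor, was lower in all 3 arms (-1.16, -0.72 and -0.96), as 0.807% of all genes were at 1.5-fold. A pair of known targets was named after the values were seen. PLAU, which encodes urokinase, the target of SERPINB2, was 0.51, 0.43 and 0.23 higher, and FURIN, the target of SERPINB8, 0.62, 0.15 and 0.26.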

How the data were processed

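Cells were hashed, pooled and sequenced as 1 10x 3' library. The values the authors deposited are raw UMI counts, made with Cell Ranger 4 per the file headers, on build hg38 per the submitters' processing notes. The authors' table assigns 15371 of 21228 called cells to 1 sample each; 5181 multiplets, 402 unassigned cells and 274 blanks were left out. Doublets within a sample were not called.

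Cells with at least 1500 genes and at most 20% mitochondrial UMIs were kept. UMIs were summed per sample, scaled to CPM, and compared as log2 ratios of CPM + 1 with the exact conditional binomial interval (scipy 1.17.1; tested on simulated data). Levels have exact Poisson and shares Clopper-Pearson intervals at 95%. They cover counting error only. For shares, cells were thinned to 5000 UMIs, which left out 5 to 13 cells a sample. The free RNA profile sums 48909 barcodes that held 10 to 100 UMIs. TMM factors came from edgeR 4.0.16, used for scaling only. With 1 sample a group no test was run. Promoter sequences are RefSeq's.

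All members, every clade B serpin at 1 CPM, the listed genes at 1.5-fold on one side in all arms or at the 2 highest levels, and the 5 nearest profiles were eligible to be named. Members and lists were chosen with earlier results of these data known. A gene of the lists is not reported here.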

Additional observations from a re-analysis of the deposited data

Results flagged for a closer look

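SERPINB6 lay on opposite sides of its control in the 2 systems. It was 0.51 log2 higher in the HA FOSL1 sample, and 0.21 lower with gRNA2 (log2 -0.21) and 0.35 lower with gRNA3 (log2 -0.35), each with a counting interval that leaves out 0. The difference between the systems was not tested, because each arm is 1 sample against 1 sample.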

How the results depend on the processing

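No paired analysis was possible because each group holds 1 sample, and for the same reason no sample could be left out. The ratios of SERPINB7 kept their direction under all 8 alternatives in all 3 arms. They were 3.89 (HA), 2.55 (gRNA2) and 2.66 (gRNA3) with a pseudocount of 0.1 CPM, 3.00, 1.82 and 1.92 with a pseudocount of 5 CPM, and 4.10, 2.73 and 2.84 with 5% free RNA subtracted. The other alternatives (TMM scaling, all assigned cells, without the deepest 10% of cells, thinned cells, the other system's control) left them within their counting intervals. In the HA arm 6 clade B serpins were 2-fold higher among genes at a mean of 1 CPM, beside 2.75% of all genes. SERPINB3 and SERPINB4 reach that mean only through the HA FOSL1 sample. At a mean of at least 20 CPM there were 2 (1.83% of all genes), and with at least 1 CPM in the control 4 (2.28%). With each guide 1 clade B gene was 2-fold higher at a mean of 1 CPM, beside 0.403% of all genes (gRNA2) and 0.459% (gRNA3). The count became 2 at 1.5-fold, beside 1.48% (gRNA2) and 1.49% (gRNA3). It also became 2 with a pseudocount of 0.1 CPM, where the share of all genes was not computed. The second gene was SERPINB5. Further alternatives kept these counts within 1.5 times. Of the recomputed ratios of the other 7 members, 145 stayed within the counting interval of the reported value and 23 left it, while 0 reversed a ratio whose interval leaves out 0. Chosen after seeing the data, unthinned cells gave ratios of SERPINB7 shares with over without a FOSL1 UMI of 2.26 (HA FOSL1), 2.33 (gRNA2) and 2.12 (gRNA3), and cells thinned to 10000 UMIs gave 1.85, 1.64 and 1.53; the cause was not tested. Levels under about 3 CPM rest on few UMIs, and co-detection of SERPINB2, SERPINB4, SERPINB9 and SERPINE2 is limited by them.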
